A study of Mus musculus with 24 samples.

Results

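The genes described here are 36 mouse genes that mark endothelial cells or govern vessel growth. They were listed by name: 11 junction, surface and matrix proteins of the endothelium, the VEGF ligand Vegfa and the 3 receptors of the VEGF family, the 2 Tie receptors, 4 transcription factors, the apelin pair, the 2 parts of the adrenomedullin receptor, 5 genes of Notch signalling, 4 genes of arterial and venous identity, and the NO synthase and water channel genes Nos3 and Aqp1. All 36 were measured, among 18819 genes that carry a single symbol. A gene was read from its only probe set in 35 cases, and Ramp2 from the brighter of 2.

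Ventricular muscle was taken on postnatal day 30 (P30) and on days 1 to 2 (newborn) and hybridised to whole-transcript arrays, 24 in all. These ages are those of the labels, and the methods word them slightly differently, with newborns a day younger and P30 hearts up to some days older. The groups were P30 KO, P30 WT, newborn KO and newborn WT, with 6 arrays each. KO mice were double knockouts, with 1 of the 2 targeted genes deleted in every tissue and the other floxed and removed by Nkx2.5-driven Cre, a driver of the cardiac lineage, and WT mice were labelled as wild type, all in animals of the C57/Bl6 strain (C57BL/6J in the methods). In the study's own tissue checks some product of the floxed gene remained in newborn KO hearts, and cardiac fibroblasts kept that gene, so its state in the vessel wall is not settled by the genotype name. Sex was mixed in each group according to the methods and is not given per array. The comparisons ask how the vascular genes changed over the first month in each genotype, and whether they differed between genotypes at either age.

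Endothelial cells line every vessel of the heart and the chambers themselves, where the lining is called endocardium. VEGF released by muscle cells acts on receptors of the endothelium to drive sprouting, angiopoietin and its receptor Tek steady the new vessel, and Notch signalling between neighbouring cells sets which cells lead a sprout and which become arterial. After birth the heart muscle enlarges quickly and the capillary bed grows with it.

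Signals are given on the log2 scale, on which a difference of 1 is a doubling. Array medians over all 35017 probe sets ran between 4.24 and 4.50. The mean correlation of an array with its own group ran between 0.986 and 0.996, lowest for newborn KO array 6, P30 WT array 2 and P30 KO array 3. The 5 defining endothelial markers Pecam1, Cdh5, Kdr, Tie1 and Tek lay between 8.33 and 10.99 on every array, so endothelial RNA was present throughout, beside cardiomyocyte markers with a mean of 11.81 to 12.14. Because whole tissue was used, fewer endothelial cells and less RNA per endothelial cell cannot be told apart. Groups were compared with limma, and a gene was called at a Benjamini-Hochberg adjusted p below 0.05 over all 18819 genes. The p-values measure the spread between these arrays.

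Most of the vascular genes differed between P30 and newborn hearts, more of them downward than upward. In WT hearts, on the values as deposited, 8 of 36 were called higher and 20 lower at P30, or 77.8%, where 47.0% of all genes were called (19.2% higher and 27.9% lower). In KO hearts 9 were called higher and 13 lower, or 61.1%, where 59.0% of all genes were called (34.0% higher and 25.0% lower), so the share in KO hearts was near that of all genes. The median difference of the 36 genes was -0.29 in WT hearts and -0.12 in KO hearts, and that of all genes 0.00 and 0.10. The P30 and newborn arrays did not overlap at all for 15 of the 36 genes in WT hearts, against 29.7% of all genes, and for 9 in KO hearts, against 31.0% of all genes.

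**Figure D1:**
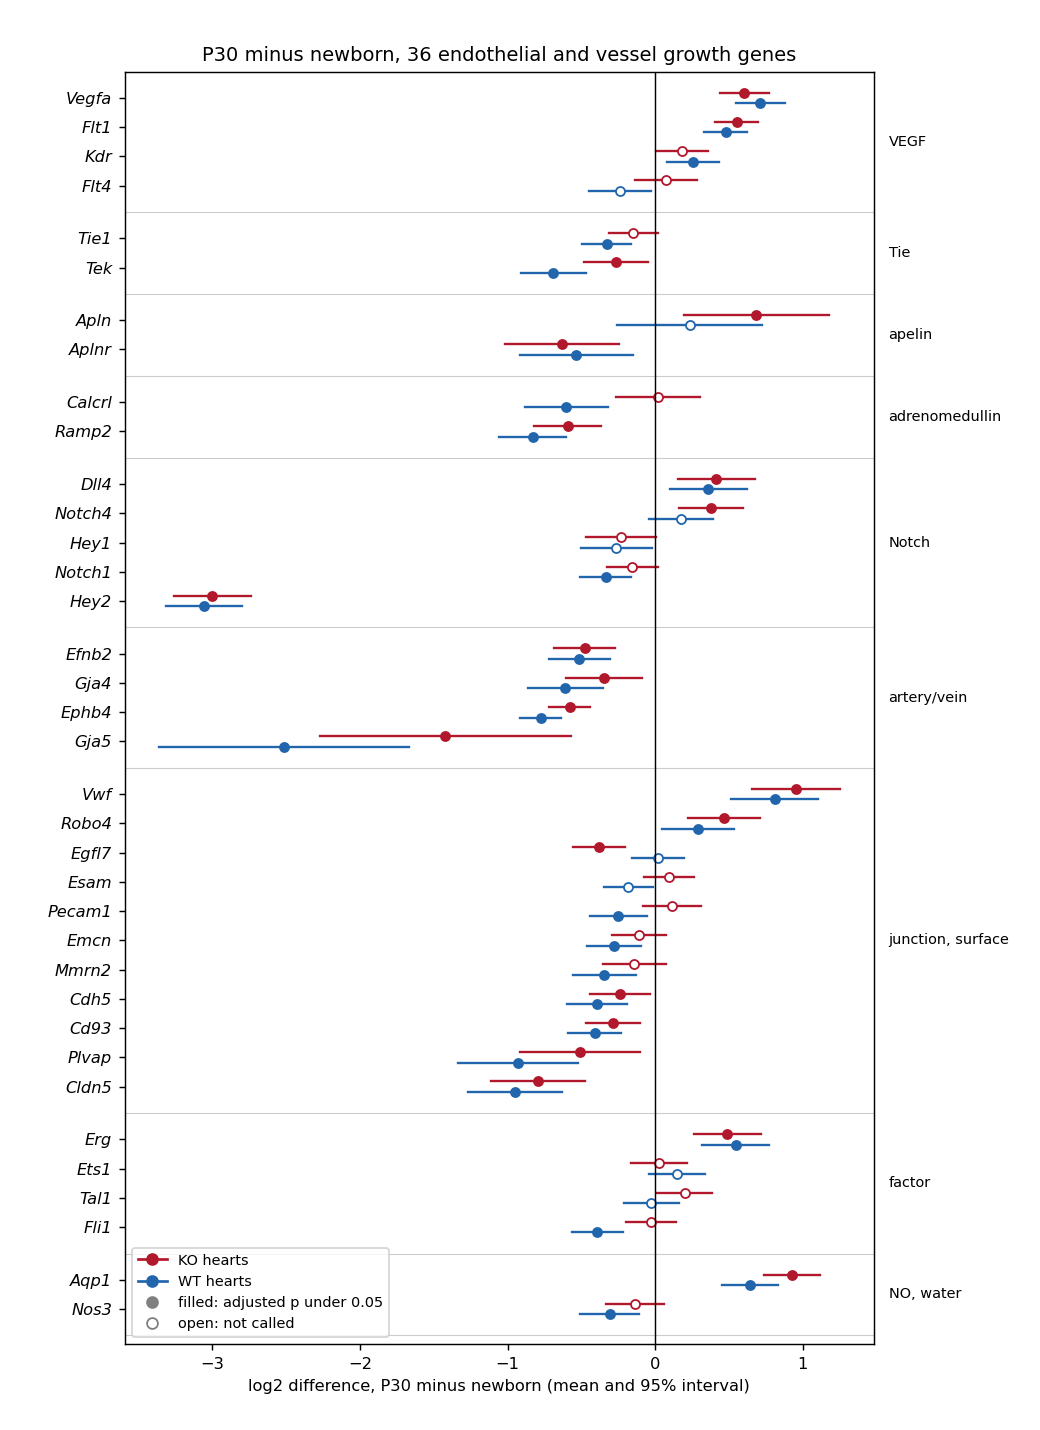
P30 minus newborn log2 difference of each of the 36 genes, grouped by role, with KO above WT for each gene. Points are fitted differences, lines their 95% intervals, and filled points are called. Hey2 at -3.00 in KO and -3.06 in WT hearts lies farthest to the left, and Vwf at 0.95 in KO hearts farthest to the right.

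Called higher at P30 in both genotypes were 7 genes: Vegfa and its receptor Flt1, the Notch ligand Dll4, the transcription factor Erg, the clotting factor carrier Vwf, the guidance receptor Robo4 and the water channel Aqp1. Lower in both were 12: Hey2, Gja5, Gja4, Efnb2, Ephb4, Cldn5, Cdh5, Cd93, Plvap, Tek, Aplnr and Ramp2. Another 9 were called in WT hearts only and 3 in KO hearts only. This does not show a difference between genotypes, since the test of that difference called none of the 36. Esam, Flt4, Ets1, Tal1 and Hey1 were called in neither genotype, and no gene was called in opposite directions. Markers of other cells also moved with age: the 8 leukocyte markers were all higher at P30 in both genotypes (mean signal 7.13 in P30 KO and 7.06 in P30 WT, 6.04 in newborn KO and 6.00 in newborn WT hearts), and of the 8 fibroblast markers 6 were lower in WT hearts and 5 lower and 1 higher in KO hearts (mean signal 9.13 in P30 KO and 8.54 in P30 WT, 9.92 in newborn KO and 9.94 in newborn WT hearts). Their part in the values of the vascular genes was not tested.

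The values as deposited set the balance of these counts. When each array was centred on its median over the 18819 genes, the median difference of all genes was 0.26 in WT and 0.27 in KO hearts. The 36 genes then gave 11 higher and 10 lower in WT hearts and 14 higher and 8 lower in KO hearts. A renewed quantile normalization gave 10 higher and 20 lower in WT hearts and 10 higher and 11 lower in KO hearts. Over all genes, the share of calls that were higher in WT hearts was 40.8% as deposited, 76.7% after centring and 50.5% after quantile normalization, and in KO hearts 57.6%, 76.9% and 49.1%. All 7 genes called higher in both genotypes kept that call under every scaling, and 6 of the 12 lower ones did: Hey2, Gja5, Cldn5, Ramp2, Efnb2 and Ephb4. Of the 9 called in WT hearts only, Kdr and Calcrl kept the call under every scaling. Fli1, Mmrn2, Notch1, Tie1, Nos3, Emcn and Pecam1 did not, and after centring stood at -0.13, -0.09, -0.08, -0.07, -0.05, -0.02 and 0.01. Apln, Notch4 and Egfl7, called in KO hearts only, kept the call. In WT hearts the sign of Pecam1, Esam, Flt4 and Tal1 changed under a scaling, and in KO hearts that of Calcrl, Emcn, Fli1, Mmrn2, Nos3, Notch1 and Tie1.

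Hey2, a transcriptional repressor induced by Notch and found in arterial endothelium as well as in the compact muscle of the developing ventricle, showed the largest change of the 36 genes. Its signal was 6.42 to 7.50 with a median of 7.11 in P30 KO hearts and 6.79 to 7.29 with a median of 6.99 in P30 WT hearts. In newborn hearts it was 9.82 to 10.24 with a median of 10.06 in KO and 9.79 to 10.23 with a median of 10.12 in WT. Every P30 array lay below every newborn array, with the genotypes intermixed at both ages. Hey2 was 8.31-fold lower at P30 in WT hearts (log2 difference -3.06 ± 0.13, SE, adjusted p = 8.87e-16) and 8-fold lower in KO hearts (-3.00 ± 0.13, SE, adjusted p = 1.24e-15). The related repressor Hey1 was not called, at -0.26 in WT hearts (adjusted p = 0.0657) and -0.23 in KO hearts (adjusted p = 0.0885).

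The start of Hey2 is printed because this gene moved most and because a promoter bound by RBPJ, the DNA-binding partner of Notch, is the usual picture of a Notch target. The window runs from 250 bases before to 50 after the annotated start, in RefSeq annotation of GRCm38.p6, on the minus strand at chr10:30842734-30843033. Capitals mark GTGGGAA, the RBPJ word, read on either strand.
Hey2: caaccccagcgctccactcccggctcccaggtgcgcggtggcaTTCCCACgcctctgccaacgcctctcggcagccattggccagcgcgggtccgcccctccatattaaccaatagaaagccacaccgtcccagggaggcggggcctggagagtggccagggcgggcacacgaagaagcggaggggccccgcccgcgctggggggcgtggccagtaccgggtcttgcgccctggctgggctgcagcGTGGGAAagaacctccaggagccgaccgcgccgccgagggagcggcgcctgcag
The word stands at position -207 on the opposite strand and at position -4 on the strand of the gene, counted from the start. Among the windows of the 36 genes, 29 could be read for 23 genes, and GTGGGAA was in 3 of them, those of Hey2, Kdr and Tie1, or 10.3%, against 6.38% of 32851 windows of the annotation. A match of letters is a description and not a binding site.

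The other Notch genes moved less and in both directions. Dll4, the ligand made by leading sprout cells and arteries, was 6.80 to 7.32 with a median of 7.19 in P30 KO hearts and 6.88 to 7.67 with a median of 7.32 in P30 WT hearts, against 6.27 to 6.94 with a median of 6.80 in newborn KO and 6.80 to 7.17 with a median of 6.88 in newborn WT hearts. It was called higher at P30 in both genotypes, by 0.36 in WT (adjusted p = 0.0219) and 0.41 in KO hearts (adjusted p = 0.0077), with overlapping ranges. The WT call was lost without P30 WT array 3 or array 6 (adjusted p up to 0.0691). Notch1, the receptor, was lower in WT hearts (-0.33, adjusted p = 0.00172) and stood at -0.16 in KO hearts (adjusted p = 0.108). Notch4, a receptor largely limited to endothelium, was higher in KO hearts (0.38, adjusted p = 0.00392) and stood at 0.18 in WT hearts (adjusted p = 0.184). The test of the difference between genotypes gave adjusted p = 0.542 for Notch1 and adjusted p = 0.578 for Notch4.

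Of 12 further genes of Notch signalling, 1 was higher and 9 lower at P30 in WT hearts, and 2 higher and 5 lower in KO hearts. After median centring the counts were 3 higher and 2 lower in WT hearts and 2 higher and 4 lower in KO hearts. The ligand gene Jag1 was at -0.72 in WT (adjusted p = 0.000338) and -0.87 in KO hearts (adjusted p = 4.63e-05), and Adam10, a protease that cuts Notch receptors, was at -0.71 in WT (adjusted p = 1.53e-08) and -0.54 in KO hearts (adjusted p = 1.46e-06). The receptors Notch3 and Notch2, at -0.52 and -0.51 in WT hearts, lost the WT call after centring and kept the KO call (-0.32 and -0.27).

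Vegfa, the ligand that drives vessel sprouting, rose over the first month together with its receptor Flt1. In P30 hearts the Vegfa signal was 9.94 to 10.47 with a median of 10.21 in KO and 10.16 to 10.38 with a median of 10.29 in WT, against 9.48 to 9.79 with a median of 9.59 in newborn KO and 9.41 to 9.79 with a median of 9.55 in newborn WT hearts. Flt1 was 8.74 to 9.02 with a median of 8.95 in P30 KO and 8.65 to 9.02 with a median of 8.75 in P30 WT hearts, against 8.26 to 8.57 with a median of 8.35 in newborn KO and 8.14 to 8.48 with a median of 8.29 in newborn WT hearts. For both genes every P30 array lay above every newborn array. Vegfa was 1.64-fold higher in WT (0.71 ± 0.08, SE, adjusted p = 6.32e-08) and 1.52-fold higher in KO hearts (0.60 ± 0.08, SE, adjusted p = 9.74e-07). Flt1, a receptor that binds VEGF tightly and in its soluble form traps it, was 1.39-fold higher in WT (0.48 ± 0.07, SE, adjusted p = 3.12e-06) and 1.47-fold higher in KO hearts (0.55 ± 0.07, SE, adjusted p = 4.69e-07).

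Kdr, the receptor that carries most of the growth signal of VEGF, was higher at P30 in WT hearts by 0.25 (adjusted p = 0.0157), a call lost without P30 WT array 6 (adjusted p = 0.0518), and was not called in KO hearts (0.18, adjusted p = 0.066). Flt4, the receptor of VEGF-C best known from lymphatic vessels, was not called at -0.24 in WT (adjusted p = 0.0552) and 0.07 in KO hearts (adjusted p = 0.532).

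The Tie receptors were lower at P30 in WT hearts. Tek, the angiopoietin receptor, was 8.91 to 9.34 with a median of 9.21 in P30 KO and 8.51 to 9.27 with a median of 8.93 in P30 WT hearts, against 9.28 to 9.72 with a median of 9.43 in newborn KO and 9.41 to 9.77 with a median of 9.62 in newborn WT hearts. The WT arrays of the 2 ages did not overlap and the KO arrays did. Tek fell by 0.69 in WT (adjusted p = 5.47e-06) and by 0.27 in KO hearts (adjusted p = 0.0334), and the KO call was lost without newborn KO array 2, 3 or 4 or P30 KO array 3 or 6 (adjusted p up to 0.0928). Tie1, its partner receptor, fell by 0.33 in WT hearts (adjusted p = 0.00124), where the ages did not overlap, and stood at -0.15 in KO hearts (adjusted p = 0.112). After centring Tek was at -0.43 in WT, still called, and at -0.09 in KO hearts, not called, and Tie1 was not called in either, at -0.07 in WT and 0.03 in KO hearts. The difference between genotypes was 0.42 for Tek (adjusted p = 0.278) and 0.18 for Tie1 (adjusted p = 0.505).

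The starts of Flt1 and Tie1 are shown because these receptors of the same cells moved in opposite directions in WT hearts as deposited. Both windows are on the minus strand of GRCm38.p6, at chr5:147725962-147726261 for Flt1 and chr4:118489800-118490099 for Tie1, from RefSeq annotation. Capitals mark AGGAAG, a word bound by ETS factors, and in Tie1 also GTGGGAA, each read on both strands.
Flt1: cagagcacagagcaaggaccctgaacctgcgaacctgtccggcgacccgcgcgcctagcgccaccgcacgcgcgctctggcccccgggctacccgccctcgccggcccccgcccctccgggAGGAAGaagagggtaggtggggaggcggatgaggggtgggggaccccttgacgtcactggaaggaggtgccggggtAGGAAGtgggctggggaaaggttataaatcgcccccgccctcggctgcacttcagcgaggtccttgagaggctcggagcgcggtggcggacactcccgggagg
Tie1: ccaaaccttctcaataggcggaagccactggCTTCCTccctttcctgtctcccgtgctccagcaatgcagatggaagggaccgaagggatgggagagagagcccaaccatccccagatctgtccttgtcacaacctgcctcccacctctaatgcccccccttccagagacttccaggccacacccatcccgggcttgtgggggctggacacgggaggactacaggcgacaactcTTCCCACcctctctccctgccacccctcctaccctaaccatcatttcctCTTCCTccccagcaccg
AGGAAG stands at positions -129 and -53 of Flt1 and, on the opposite strand, at -219 and 34 of Tie1, which holds GTGGGAA on the opposite strand at -16. It was in 12 of the 29 windows, or 41.4%, against 35.4% of all windows, a share near the background. ACGTG, the core of the word bound by hypoxia-inducible factors, was in 1 window, that of Vegfa, or 3.45%, against 19.6% of all windows.

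Among 14 other VEGF, angiopoietin and adrenomedullin pathway genes, 3 were higher and 6 lower at P30 in WT hearts, and 3 higher and 2 lower in KO hearts. Ptprb, a phosphatase that restrains Tek, was higher by 0.81 in WT (adjusted p = 9.45e-09) and 0.82 in KO hearts (adjusted p = 9.43e-09). Adm, the adrenomedullin gene, was at -0.92 in WT (adjusted p = 0.000149) and -0.75 in KO hearts (adjusted p = 0.00123), and Ramp1, an alternative receptor partner, at -1.06 in WT (adjusted p = 3.54e-08) and -0.57 in KO hearts (adjusted p = 0.000229). Vegfd was called in WT hearts only, at -0.78 (adjusted p = 0.000564), with -0.35 in KO hearts (adjusted p = 0.0885). After centring the counts were 6 higher and 4 lower in WT and 5 higher and 2 lower in KO hearts.

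The adrenomedullin receptor is built from Calcrl, the receptor protein, and Ramp2, the partner that brings it to the cell surface and sets its ligand. Ramp2 was 7.62 to 8.47 with a median of 8.003 in P30 KO and 7.47 to 8.03 with a median of 7.72 in P30 WT hearts, against 8.42 to 8.73 with a median of 8.65 in newborn KO and 8.38 to 8.74 with a median of 8.62 in newborn WT hearts. It fell by 0.83 in WT (adjusted p = 7.23e-07), with no overlap, and by 0.59 in KO hearts (adjusted p = 8.13e-05), where the highest P30 array passed the lowest newborn array. Calcrl was 8.31 to 9.09 with a median of 8.79 in P30 KO and 7.83 to 8.91 with a median of 8.36 in P30 WT hearts, against 8.61 to 9.004 with a median of 8.71 in newborn KO and 8.69 to 9.08 with a median of 8.91 in newborn WT hearts. It fell by 0.60 in WT (adjusted p = 0.000679) and stood at 0.02 in KO hearts (adjusted p = 0.915). The difference between genotypes for Calcrl, 0.62 ± 0.19 (SE), did not pass the adjusted threshold (unadjusted p = 0.00383, adjusted p = 0.247).

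Aplnr, the apelin receptor of growing veins and capillaries, was 7.85 to 8.78 with a median of 8.49 in P30 KO and 8.75 to 9.52 with a median of 9.07 in P30 WT hearts, against 8.59 to 9.66 with a median of 8.92 in newborn KO and 8.94 to 9.88 with a median of 9.77 in newborn WT hearts. The ages overlapped in both genotypes. It fell by 0.53 in WT (adjusted p = 0.0205), a call lost without P30 WT array 5 (adjusted p = 0.0555), and by 0.63 in KO hearts (adjusted p = 0.00621). Apln, its ligand, was 7.84 to 8.56 with a median of 8.18 in P30 KO and 8.01 to 8.72 with a median of 8.36 in P30 WT hearts, against 6.37 to 8.16 with a median of 7.48 in newborn KO and 7.44 to 8.59 with a median of 8.27 in newborn WT hearts. The newborn KO arrays were the most scattered of the 4 groups. Apln was higher at P30 in KO hearts (0.69 ± 0.24, SE, adjusted p = 0.0174), a call lost without newborn KO array 6 (adjusted p = 0.0562), and stood at 0.23 in WT hearts (adjusted p = 0.458).

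Genes of arterial and venous identity fell. Ephb4, the venous receptor of the ephrin pair, was 8.16 to 8.51 with a median of 8.38 in P30 KO and 8.05 to 8.44 with a median of 8.24 in P30 WT hearts, against 8.79 to 9.04 with a median of 8.95 in newborn KO and 8.96 to 9.09 with a median of 9.02 in newborn WT hearts. No P30 array reached a newborn one, and the differences were -0.78 ± 0.07 in WT (SE, adjusted p = 8.06e-10) and -0.58 ± 0.07 in KO hearts (SE, adjusted p = 1.21e-07). Efnb2, the arterial ligand of that pair, was lower in WT (-0.51, adjusted p = 0.000135) and in KO hearts (-0.48, adjusted p = 0.000324), without overlap in WT hearts. Gja4, a connexin of arterial endothelium, was at -0.61 in WT (adjusted p = 0.000189) and -0.35 in KO hearts (adjusted p = 0.0193), with the KO call lost without P30 KO array 3 (adjusted p = 0.062).

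Gja5, the connexin of arteries that is also made by atrial muscle and the conduction system, had the widest spread of the 36 genes at P30. Its signal was 5.97 to 8.38 with a median of 7.73 in P30 KO and 5.55 to 8.24 with a median of 5.97 in P30 WT hearts, against 8.33 to 9.20 with a median of 8.74 in newborn KO and 7.86 to 9.33 with a median of 9.09 in newborn WT hearts. The fitted differences were -2.51 ± 0.41 in WT (SE, 5.71-fold lower, adjusted p = 1.38e-05) and -1.42 ± 0.41 in KO hearts (SE, 2.68-fold lower, adjusted p = 0.00526), and the ages overlapped in both. The mean signal of 10 atrial muscle markers moved with it: it ran between 6.15 and 9.12 in P30 KO and between 5.69 and 8.43 in P30 WT hearts, with means of 8.03 ± 1.09 and 6.56 ± 1.12 (SD, n = 6 each). In newborn hearts that mean was 8.33 ± 0.36 in KO and 8.22 ± 0.55 in WT (SD, n = 6 each). The 2 P30 WT arrays with the highest atrial mean, arrays 2 and 5, were also the 2 highest for Gja5. The part of atrial tissue in the age difference of Gja5 was not tested.

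**Figure D2:**
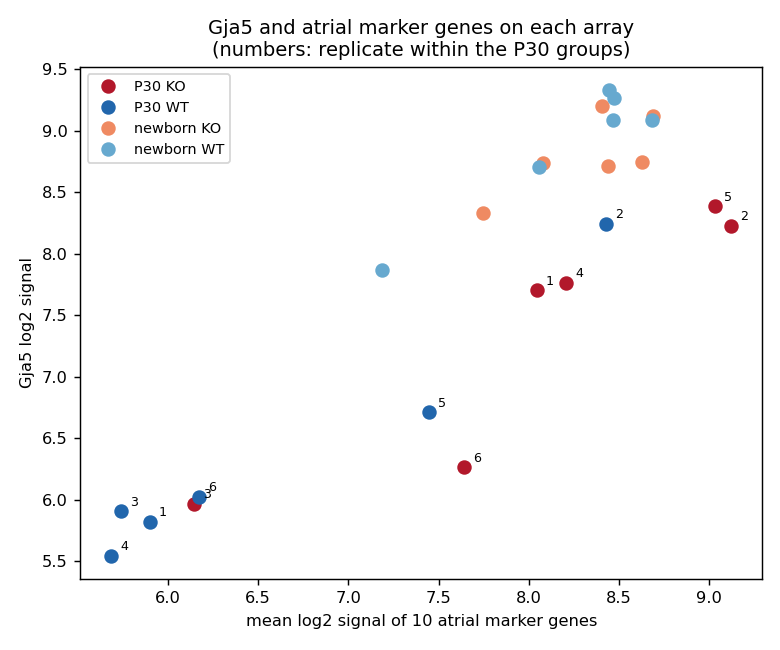
Gja5 log2 signal against the mean log2 signal of 10 atrial muscle markers on each of the 24 arrays, with P30 KO, P30 WT, newborn KO and newborn WT marked separately and P30 arrays numbered. P30 arrays spread from an atrial mean of 5.69 to 9.12, and those with an atrial mean of 8.04 or more have the highest Gja5 signals at P30. P30 KO array 6, with an atrial mean of 7.64, has a Gja5 signal of 6.26, below P30 WT array 5 (7.44 and 6.71).

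Junction, surface and matrix proteins split. Cldn5, the tight junction protein of endothelium, was 7.84 to 8.67 with a median of 8.41 in P30 KO and 8.02 to 8.81 with a median of 8.33 in P30 WT hearts, against 8.84 to 9.32 with a median of 9.10 in newborn KO and 9.01 to 9.74 with a median of 9.31 in newborn WT hearts. The ages did not overlap in either genotype. Cldn5 was 1.93-fold lower at P30 in WT (-0.95 ± 0.16, SE, adjusted p = 1.32e-05) and 1.74-fold lower in KO hearts (-0.80 ± 0.16, SE, adjusted p = 0.000135). Cdh5, the adhesion protein of endothelial junctions, was at -0.40 in WT (adjusted p = 0.00164) and -0.24 in KO hearts (adjusted p = 0.043), and the KO call was lost without any 1 of newborn KO arrays 2, 3, 4 and 5 and P30 KO arrays 1, 5 and 6 (adjusted p up to 0.105). Cd93, a surface lectin that binds Mmrn2, was at -0.41 in WT (adjusted p = 0.000336) and -0.29 in KO hearts (adjusted p = 0.00795).

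Vwf, which carries clotting factor and is stored in endothelial granules, rose most among the 36. It was 8.005 to 8.98 with a median of 8.44 in P30 KO and 7.91 to 8.50 with a median of 7.97 in P30 WT hearts, against 7.33 to 7.97 with a median of 7.49 in newborn KO and 7.07 to 7.63 with a median of 7.19 in newborn WT hearts. Every P30 array exceeded every newborn array of its genotype. Vwf was 1.75-fold higher in WT (0.81 ± 0.14, SE, adjusted p = 4.02e-05) and 1.94-fold higher in KO hearts (0.95 ± 0.14, SE, adjusted p = 5.23e-06). Megakaryocytes also make Vwf, and of 4 megakaryocyte markers 2 were called higher at P30 in each genotype. The other 2 were not called, and lay above 0 in WT hearts and below 0 in KO hearts (down to -0.65). The KO calls were kept in 18 (Pf4) and 22 (Ppbp) of 24 fits without 1 array. The mean signal of the 4 markers was 6.09 in P30 KO and 6.52 in P30 WT hearts, against 6.04 in newborn KO and 5.60 in newborn WT hearts. Newborn KO array 6, the highest of its group for Vwf, had a mean of 7.31 for these markers, and the other newborn KO arrays 5.57 to 5.99. Without that array Vwf was higher by 1.03 in KO hearts, but removing the highest newborn array can only raise this difference. The part of megakaryocytes in the values of Vwf was not tested. Robo4, a receptor that guards vessel integrity, was higher by 0.29 in WT (adjusted p = 0.0443) and 0.47 in KO hearts (adjusted p = 0.00176), and the WT call was lost without any 1 of newborn WT arrays 1, 4, 5 and 6, newborn KO array 5 and P30 WT arrays 1, 2 and 6 (adjusted p up to 0.115).

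Plvap, the protein of the diaphragms that close endothelial pores, was 6.45 to 7.78 with a median of 7.46 in P30 KO and 6.14 to 7.37 with a median of 6.66 in P30 WT hearts, against 7.69 to 8.08 with a median of 7.86 in newborn KO and 7.21 to 8.05 with a median of 7.59 in newborn WT hearts. It fell by 0.93 in WT (adjusted p = 0.000317) and by 0.51 in KO hearts (adjusted p = 0.0292), the KO call being lost without newborn KO array 6 or P30 KO array 3 or 4 (adjusted p up to 0.1). Pecam1, Emcn and Mmrn2, an adhesion protein, a sialomucin of veins and capillaries and a matrix protein of vessels, were lower in WT hearts by small amounts (-0.25, adjusted p = 0.0314, -0.28, adjusted p = 0.0118, and -0.35, adjusted p = 0.00727) and were not called in KO hearts (0.11, -0.11 and -0.14). The Pecam1 call was lost without any 1 of newborn WT arrays 1, 2, 3, 5 and 6 and P30 WT arrays 1, 4 and 5 (adjusted p up to 0.0916), and after centring its difference was 0.01. Esam, a further junction protein, was at -0.18 in WT and 0.09 in KO hearts and was not called.

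Of 22 other endothelial surface genes, 7 were higher and 10 lower at P30 in WT hearts and 8 higher and 5 lower in KO hearts. Vcam1, an adhesion molecule that embryonic heart muscle also makes, was at -1.999 in WT (adjusted p = 3.41e-11) and -1.23 in KO hearts (adjusted p = 1.52e-07), and Sele, the endothelial selectin, at -0.93 in WT (adjusted p = 9.95e-06) and -0.70 in KO hearts (adjusted p = 0.000349). Jam2, a junction adhesion molecule, was higher by 1.40 in WT (adjusted p = 4.6e-15) and 1.61 in KO hearts (adjusted p = 3.65e-16). Clec14a, a lectin of growing vessels, was at -0.81 in WT and -0.74 in KO hearts. After centring the counts were 8 higher and 5 lower in WT and 9 higher and 4 lower in KO hearts.

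The transcription factors of the endothelium did not move together. Erg, Fli1 and Ets1 belong to the ETS family, which drives many endothelial genes. Erg was 7.59 to 8.35 with a median of 7.98 in P30 KO and 7.82 to 8.53 with a median of 8.31 in P30 WT hearts, against 7.34 to 7.59 with a median of 7.53 in newborn KO and 7.56 to 7.75 with a median of 7.69 in newborn WT hearts. It was higher at P30 in WT (0.54 ± 0.11, SE, adjusted p = 0.000186) and KO hearts (0.49 ± 0.11, SE, adjusted p = 0.000619), and the ages did not overlap within a genotype. Fli1 was 7.83 to 8.33 with a median of 8.16 in P30 KO and 7.80 to 8.14 with a median of 7.94 in P30 WT hearts, against 7.99 to 8.21 with a median of 8.15 in newborn KO and 8.22 to 8.51 with a median of 8.35 in newborn WT hearts. It fell by 0.39 in WT (adjusted p = 0.0003), without overlap, and stood at -0.03 in KO hearts (adjusted p = 0.771), with a difference between genotypes of 0.36 (adjusted p = 0.252). After centring the WT difference of Fli1 was -0.13, and its call did not hold under every scaling. Ets1 was not called (0.15 in WT and 0.02 in KO hearts), and neither was Tal1, which is also a factor of blood cell formation (-0.03 in WT and 0.20 in KO hearts).

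Among 15 other endothelial transcription factors 4 were higher and 6 lower in WT hearts, and 4 higher and 5 lower in KO hearts. Epas1, a hypoxia-inducible factor, was higher by 1.32 in WT (adjusted p = 1.44e-11) and 1.08 in KO hearts (adjusted p = 6.25e-10). Foxc2 and Foxc1, forkhead factors of vessel and valve development, were at -1.17 and -1.09 in WT and -0.78 and -0.77 in KO hearts, and Nr2f2, a factor of venous identity, at -1.03 in WT (adjusted p = 0.000179) and -0.74 in KO hearts (adjusted p = 0.00407). After centring the counts were 6 higher and 4 lower in WT and 4 higher and 3 lower in KO hearts.

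Aqp1, the water channel of capillary endothelium and red cells, was 9.56 to 9.90 with a median of 9.74 in P30 KO and 9.32 to 9.98 with a median of 9.59 in P30 WT hearts, against 8.77 to 8.89 with a median of 8.82 in newborn KO and 8.80 to 9.14 with a median of 8.93 in newborn WT hearts. The ages were fully apart in both genotypes. Aqp1 was 1.56-fold higher in WT (0.64 ± 0.09, SE, adjusted p = 1.92e-06) and 1.9-fold higher in KO hearts (0.93 ± 0.09, SE, adjusted p = 7.61e-09). Nos3, the endothelial NO synthase, was lower in WT hearts (-0.31, adjusted p = 0.00947) and stood at -0.14 in KO hearts (adjusted p = 0.215).

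**Figure D3:**
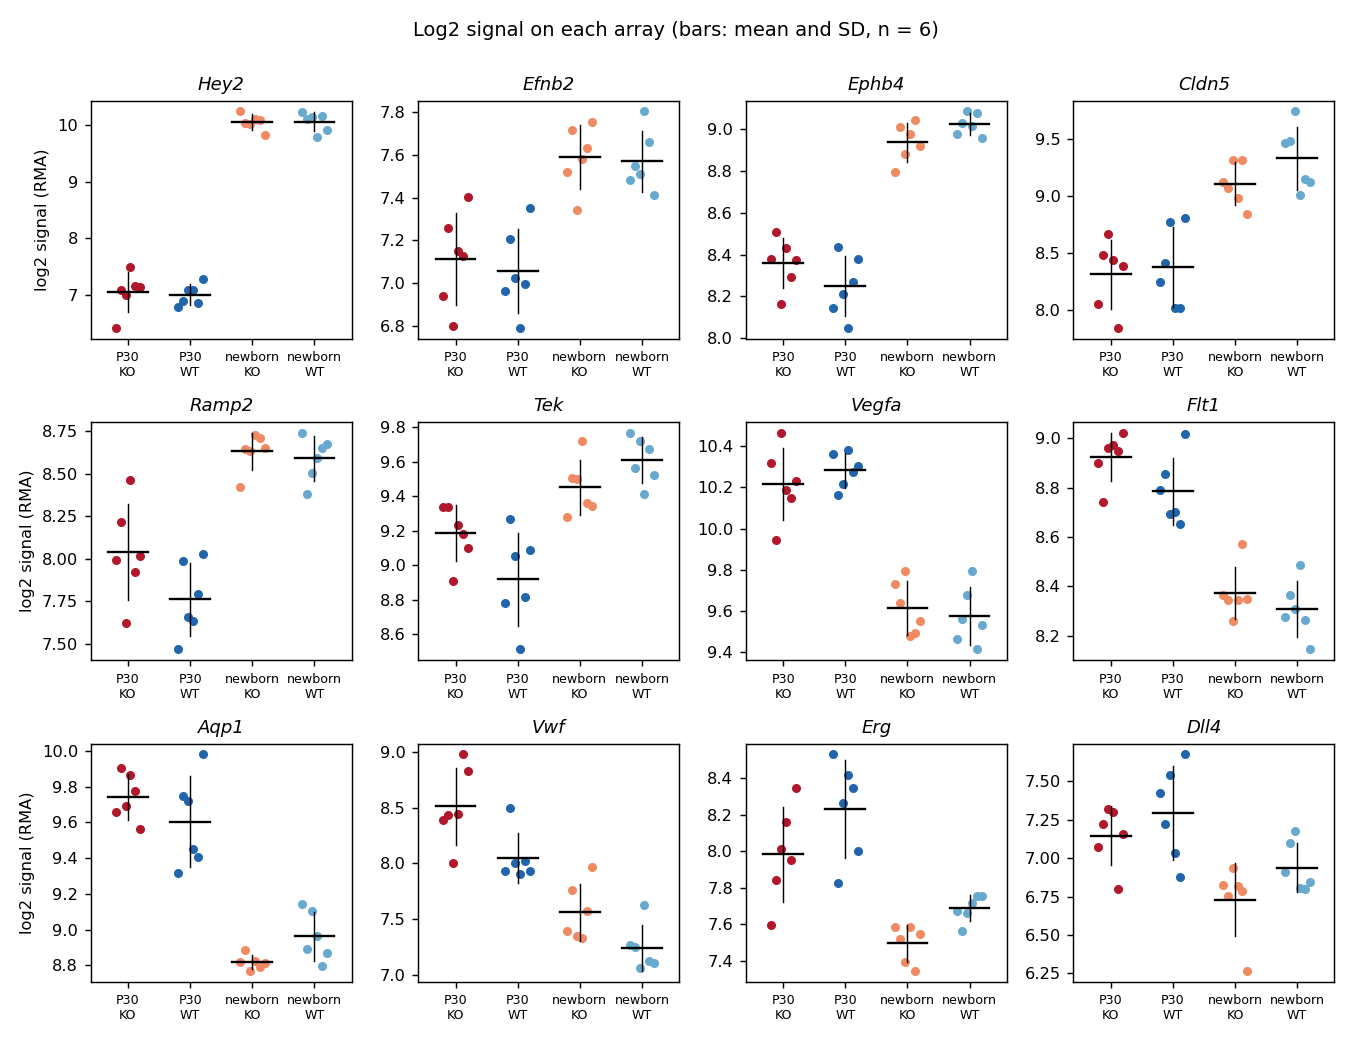
Log2 signal of 12 of the genes on each array, in the order P30 KO, P30 WT, newborn KO and newborn WT, with the mean and SD of each group. P30 and newborn arrays do not overlap for Hey2, Vegfa, Flt1, Aqp1, Vwf, Erg, Ephb4 and Cldn5 within either genotype.

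In newborn hearts no vascular gene was called between KO and WT, and none of all genes was called (0%). At an unadjusted p below 0.05 stood 6 of the 36, against 9.07% of all genes: Vwf at 0.32, and Fli1 at -0.23, Ets1 at -0.20, Apln at -0.66, Aplnr at -0.62 and Notch4 at -0.23. Of the 36, 1 gene separated the genotypes fully, Fli1, with every newborn KO array below every newborn WT array, against 0.489% of all genes. The median difference was -0.10, and -0.05 over all genes. Newborn KO array 6, which correlated least with its group (0.986), was the lowest newborn KO array for Apln and Aplnr, and without it they were at -0.43 (adjusted p = 0.823) and -0.54 (adjusted p = 0.801). Newborn KO array 4 was the highest of its group for Aplnr (9.66) and newborn WT array 4 the lowest of its group for Aplnr (8.94) and Apln (7.44), so a fit without both removes arrays that oppose the difference and is no support for it. In that fit Apln was at -0.92 (adjusted p = 0.0362) and Aplnr at -0.89 (adjusted p = 0.00381), where 2.56% of all genes were called.

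At P30, 1 of the 36 genes was called between KO and WT, where 1.02% of all genes were called. Egfl7, a protein that endothelial cells secrete into their matrix, was 8.41 to 8.83 with a median of 8.81 in P30 KO hearts and 8.84 to 9.25 with a median of 9.03 in P30 WT hearts. It was 8.98 to 9.24 with a median of 9.04 in newborn KO and 8.85 to 9.18 with a median of 9.01 in newborn WT hearts. All P30 KO arrays lay below all P30 WT arrays, by a narrow gap, and this was the only one of the 36 genes to separate the genotypes, against 0.824% of all genes. Egfl7 was 1.28-fold lower in P30 KO than in P30 WT hearts (-0.35 ± 0.09, SE, adjusted p = 0.0446). The call was kept in 9 of 24 fits that left out 1 array (adjusted p 0.0184 to 0.12), and among the 12 P30 arrays alone the difference had adjusted p = 0.224, or -0.30 (adjusted p = 0.516) with the atrial marker mean as a covariate. Between the ages, Egfl7 fell by 0.38 in KO hearts (adjusted p = 0.000561) and stood at 0.02 in WT hearts (adjusted p = 0.871), and the difference between genotypes was -0.40 (unadjusted p = 0.00266, adjusted p = 0.241).

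Egfl7 is shown with the microRNA that lies within the gene, since a probe set for the hairpin gave a second reading of the locus. The window is the second of 3 annotated starts, on the plus strand of GRCm38.p6 at chr2:26583615-26583914, with AGGAAG in capitals on either strand, and the mature arm miR-126a-3p lies downstream at chr2:26591402-26591423, with its seed in capitals, both from RefSeq.
Egfl7: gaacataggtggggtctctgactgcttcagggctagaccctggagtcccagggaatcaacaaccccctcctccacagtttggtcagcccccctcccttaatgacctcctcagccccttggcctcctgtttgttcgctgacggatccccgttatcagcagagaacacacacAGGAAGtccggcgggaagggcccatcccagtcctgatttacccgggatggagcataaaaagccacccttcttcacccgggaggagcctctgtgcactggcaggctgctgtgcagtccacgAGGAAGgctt
mmu-miR-126a-3p: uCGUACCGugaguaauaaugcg
AGGAAG stands at positions -80 and 41. The hairpin probe set, which reads the locus and not the mature miRNA, was at -0.38 between P30 KO and P30 WT hearts and was not called (Mir126a, adjusted p = 0.245).

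The other genes at P30 did not pass the adjusted threshold. The 36 had a median difference of 0.12, against 0.03 over all genes, with 24 above 0, and 13 had an unadjusted p below 0.05, against 15.0% of all genes. Over all genes the share of calls that were higher in P30 KO hearts was 65.6% as deposited, 41.3% after centring and 41.5% after quantile normalization. Aplnr was the nearest to a call after Egfl7: its P30 KO arrays (7.85 to 8.78) lay below the P30 WT arrays (8.75 to 9.52) but for a narrow overlap, and the difference was -0.72 ± 0.19 (SE, adjusted p = 0.0605). It was called lower after median centring (-0.79, adjusted p = 0.0312) and after quantile normalization (-0.70, adjusted p = 0.0465). Averaged over the ages, a comparison added after both differences had been seen, Aplnr was 1.59-fold lower in KO hearts (-0.67 ± 0.13, SE, adjusted p = 0.0285), the only one of the 36 called, where 0.298% of all genes were. This call was kept in 11 of 24 fits without 1 array (adjusted p 0.00363 to 0.0688). Its ligand Apln was at -0.20 at P30 (adjusted p = 0.75). Ets1 was at -0.32 at P30 (adjusted p = 0.0905) and at -0.26 over both ages (adjusted p = 0.092).

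Plvap, Vwf, Calcrl and Gja5 stood higher in P30 KO than in P30 WT hearts without a call, at 0.67 (adjusted p = 0.0941), 0.46 (adjusted p = 0.114), 0.45 (adjusted p = 0.112) and 1.01 (adjusted p = 0.233). Without P30 WT array 2, Plvap, Vwf, Calcrl, Gja5 (1.38, adjusted p = 0.0282) and Pecam1 were called higher and Egfl7, Ets1 and Aplnr lower, 8 in all, where 4.17% of all genes were called. Without P30 KO array 3 there were also 8, with Ramp2 in place of Gja5, where 4.28% of all genes were called. P30 WT array 2 was the highest of its group for every gene called higher without it. Likewise P30 KO array 3 was the lowest of its group for every gene called higher without it. Both fits thus remove an array that opposes these differences and are no support for them. P30 WT array 2 had the highest atrial marker mean of its group, 8.43, and P30 KO array 3 the lowest of its own, 6.15. Among the 12 P30 arrays alone none of the 36 genes was called, where 0.101% of all genes were, and with that mean as a covariate none was either, where 0.0425% of all genes were. Plvap was then at 0.11, Calcrl at 0.14, Vwf at 0.19 and Gja5 at -0.25 (adjusted p = 0.804). Of the 11 atrial markers 10 stood higher in P30 KO than in P30 WT hearts, with a median difference of 1.20, and none was called. The 8 fibroblast markers were all on the positive side too, with a median of 0.57, a mean signal of 9.13 ± 0.59 in P30 KO and 8.54 ± 0.61 in P30 WT hearts (SD, n = 6 each) and none called, and the 8 mural markers had a median of 0.06, a mean signal of 9.27 ± 0.40 in P30 KO and 8.89 ± 0.29 in P30 WT hearts (SD, n = 6 each) and none called. The 3 endocardial markers were on the positive side, with a median of 0.60 and a mean signal of 8.21 ± 0.41 in P30 KO and 7.67 ± 0.33 in P30 WT hearts (SD, n = 6 each). Of the 3 lymphatic markers 2 were, with a median of 0.61 and a mean signal of 8.08 ± 0.23 in P30 KO and 7.73 ± 0.24 in P30 WT hearts (SD, n = 6 each), and none of either list was called. Of the 10 cardiomyocyte markers 2 were called lower, Ttn and Ryr2, where 1.02% of all genes were called, and the list had a median of -0.04. The Ryr2 call was lost after centring. Megakaryocyte, erythroid and leukocyte markers had medians of -0.52, -0.33 and 0.11, with none called. The atrial marker mean used as covariate itself differed between the groups, at 8.03 ± 1.09 in P30 KO and 6.56 ± 1.12 in P30 WT hearts (SD, n = 6 each). That fit therefore cannot tell genotype and atrial tissue apart. The part of the other cells in the values of the vascular genes was not tested.

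**Figure D4:**
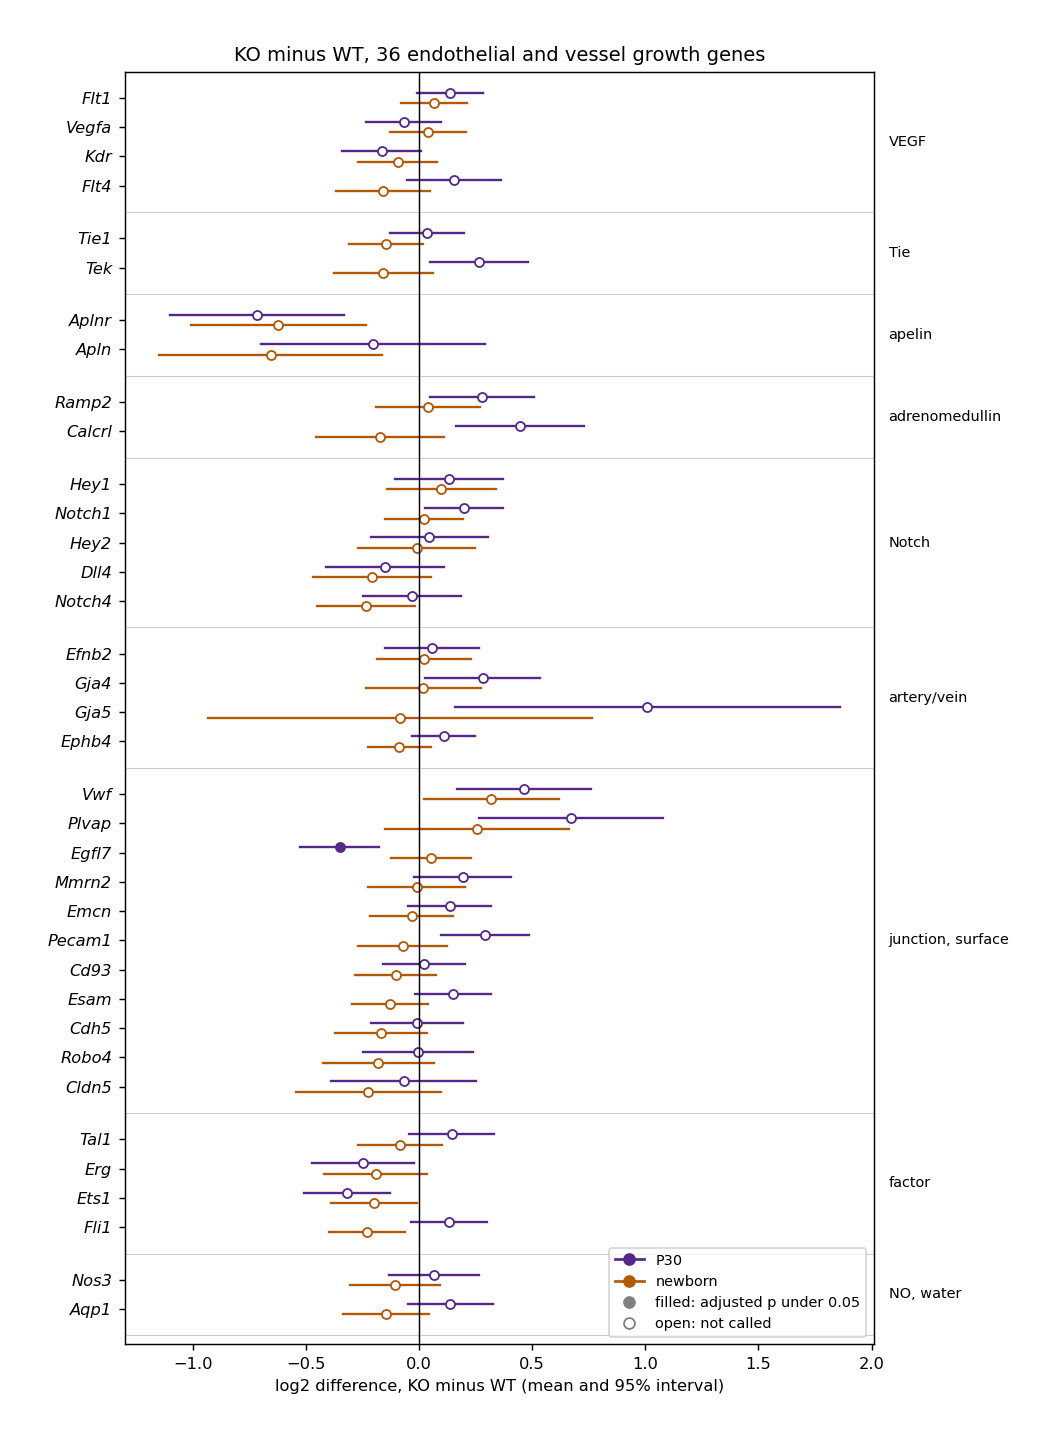
KO minus WT log2 difference of each of the 36 genes, with P30 above newborn for each gene. Points are fitted differences, lines their 95% intervals and filled points are called. Egfl7 at P30, at -0.35, is the only filled point, and Gja5 at P30, at 1.01, has a wide interval.

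**Figure D5:**
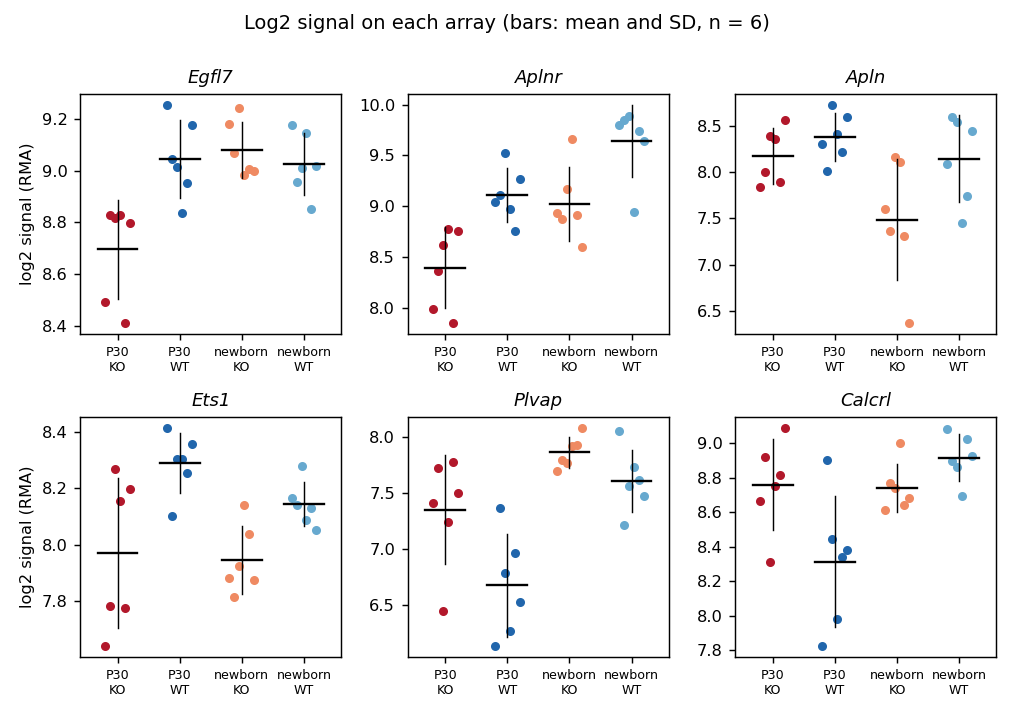
Log2 signal of Egfl7, Aplnr, Apln, Ets1, Plvap and Calcrl on each array, in the order P30 KO, P30 WT, newborn KO and newborn WT, with the mean and SD of each group. The P30 KO arrays of Egfl7, up to 8.83, end just below the P30 WT arrays, which begin at 8.84.

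A difference between genotypes in the change over the first month was called for none of the 36 genes, where 0.0106% of all genes were called. The difference, KO change minus WT change, was above 0 for 30 of the 36, with a median of 0.18 against 0.08 over all genes. After median centring these medians were 0.09 and 0.00, and after quantile normalization 0.13 and 0.00. At an unadjusted p below 0.05 stood 8 genes, against 12.9% of all genes: Calcrl (0.62), Tek (0.42), Pecam1 (0.36), Fli1 (0.36), Flt4 (0.31), Esam (0.28) and Aqp1 (0.28) above 0, and Egfl7 (-0.40) below. The age and genotype comparisons rest on the same 24 arrays, so these values are not separate observations from those given above.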

How the data were processed

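Ventricular RNA of 24 samples was measured on 1-colour whole-transcript arrays. Each sample was deposited as log2 signals from RMA, run by the authors, which corrects the background, quantile-normalizes and summarises probes. The submitters' processing notes name oligo 1.22, limma 3.14 and R 2.15. They were used as deposited. Of 35017 probe sets, 21118 carry 1 symbol, 1735 several and 12164 none in the platform table, and 21085 symbols were matched by Entrez number. The brightest probe set over all arrays stood for a gene, giving 18819 genes. No column lacked a sample (0 unmapped). A supplementary statistics table of the study was not used here, and the targeted genes are not reported here.

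One mean per group was fitted over all 24 arrays with limma 3.58.1 in R 4.3.3 (20 residual degrees of freedom), with Benjamini-Hochberg adjustment over all genes. The 36 genes and all lists were chosen with earlier results of these data known. All 36 are named, and from each further list up to 4 called genes with the largest difference. Alternatives were a filter on dim genes, a fold minimum of 1.5, median centring, a new quantile normalization, another variance model, array weights, replicate number as a block, other probe set choices, fewer arrays, and arrays left out. The fit was tested on simulated data. The number of arrays limits precision. Scan dates, slides and litters are not given in the sources used here, and sex was not in the model.

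Promoter windows and the miRNA were read from RefSeq tables of GRCm38.p6.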

Additional observations from a re-analysis of the deposited data

Results flagged for a closer look

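Each of the 36 genes was examined for an array far from the other 5 of its group. Of 144 groups, 10 held such an array, where chance gives about 1 in 20. In 5 of the 10 it was newborn WT array 4. That array was the lowest of its group for Pecam1 (9.55, the others 9.85 to 9.97), Cdh5 (10.62, the others 10.91 to 10.99) and Aplnr (8.94, the others 9.64 to 9.88). It was the highest for Vwf (7.63, the others 7.07 to 7.27) and Notch1 (8.65, the others 8.38 to 8.44).

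In the remaining groups, newborn WT array 1 was the highest for Emcn (10.54, the others 10.12 to 10.23) and P30 WT array 2 the highest for Vwf (8.50, the others 7.91 to 8.02). Newborn KO array 5 was the highest for Flt1 (8.57, the others 8.26 to 8.37), newborn KO array 1 the lowest for Ramp2 (8.42, the others 8.63 to 8.73) and newborn KO array 6 the lowest for Dll4 (6.27, the others 6.75 to 6.94).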

How the results depend on the processing

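The counts of calls between the ages were within 1.5 times the main value under every alternative but the fold minimum of 1.5, which left 12 of the 36 genes in WT hearts (3 higher and 9 lower) and 9 in KO hearts (4 higher and 5 lower). Leaving out each array in turn gave 26 to 29 calls in WT and 19 to 24 in KO hearts, 0 to 0 between newborn KO and WT, 0 to 8 between P30 KO and WT, 0 to 4 averaged over the ages and 0 to 0 for the difference between the effects. Between P30 KO and WT the count was 0 with the fold minimum, with all probe sets tested together, with the 12 arrays alone and with the atrial marker mean. It was 2 after median centring, after quantile normalization, with the mean of a gene's probe sets, without both newborn arrays numbered 4, and after centring without P30 KO array 4 (added after seeing the data), and 5 with array weights. Without both newborn arrays numbered 4 the newborn count was 2 and the average over the ages 3, and that average gave 4 with array weights and 0 with all probe sets. Over all genes the average gave 201 higher and 268 lower without those 2 arrays, and 122 higher and 100 lower with array weights. With replicate number as a block the counts were 29 and 22 between the ages in WT and KO hearts, 0 in newborn, 1 at P30, 1 on average and 0 for the difference. Deviations correlated above 0.1 in 8 of 24 same-numbered pairs (-0.44 to 0.64), highest for the P30 KO and P30 WT arrays numbered 2. Pairs of unlike number were not compared, so whether the numbers pair samples or mark a batch was not tested. Pecam1 reversed in WT hearts after centring (0.0071, adjusted p = 0.936). Of 7632 values of single genes under an alternative, 7413 had the same outcome as the main fit, called or not called, 132 lost a call and 86 gained one. Most of these values were not called in the main fit, so the first count does not measure how stable the calls were.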

Other observations

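Of all genes 47.0% were called between the ages in WT and 59.0% in KO hearts. On the values as deposited, the share called in KO hearts was near or below that of all genes in every further endothelial list, including those described earlier. These were the lists of VEGF pathway, Notch, surface, transcription factor, sprouting and lipid uptake genes. In WT hearts, also as deposited, the lipid uptake genes were near the share of all genes, and the other lists were above it. After centring the Notch, sprouting and surface lists were below the share of all genes in WT hearts. Of 8 tip cell and sprouting genes, 1 was higher and 5 lower at P30 in WT hearts and 2 higher and 2 lower in KO hearts, and after centring 2 higher and 2 lower in WT and 3 higher and 2 lower in KO hearts. Mcam, an adhesion molecule of vessels, was at -1.16 in WT (adjusted p = 1.21e-08) and -0.92 in KO hearts (adjusted p = 5.83e-07), and Unc5b, a netrin receptor of sprouts, at -1.03 in WT (adjusted p = 1.17e-07) and -1.08 in KO hearts (adjusted p = 7.21e-08). Esm1, a secreted tip cell product, was higher by 0.34 in WT (adjusted p = 0.0051) and 0.78 in KO hearts (adjusted p = 3.28e-07). Of 10 genes of fatty acid uptake in capillaries 3 were higher and 2 lower in WT and 3 higher and 1 lower in KO hearts, and after centring 6 higher and 1 lower in WT and 5 higher and 1 lower in KO hearts. Lpl, the lipase that frees fatty acids at the vessel wall, was higher by 1.04 in WT (adjusted p = 1.62e-14) and 1.00 in KO hearts (adjusted p = 4.01e-14), and Fabp5, a fatty acid binding protein, was at -1.32 in WT (adjusted p = 1.65e-10) and -1.05 in KO hearts (adjusted p = 9.99e-09).

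Of the 22 other endothelial surface genes, 2 were called between genotypes at P30, where 1.02% of all genes were called. They kept the call under every scaling and in all 24 fits without 1 array, with overlapping ranges. These fits also drew their spread from newborn arrays. The 2 genes were not tested among the 12 P30 arrays alone, where 0.101% of all genes were called, nor with the atrial marker mean. Vcam1 was 6.77 to 7.64 in P30 KO and 6.18 to 7.32 in P30 WT hearts (0.76, adjusted p = 0.0108), and 8.50 to 8.75 in newborn KO and 8.50 to 8.78 in newborn WT hearts. S1pr1, a receptor that steadies vessels, was 8.67 to 8.95 in P30 KO and 8.19 to 8.76 in P30 WT hearts (0.44, adjusted p = 0.0118). Fibroblast and atrial marker means were higher in the same P30 KO hearts, and their part in these values was not tested. Esm1 was higher in P30 KO hearts too (0.39, adjusted p = 0.0471), a call kept in 8 of 24 fits without 1 array and lost after centring.

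The hairpin of miR-126a within Egfl7 was higher at P30 in WT hearts (Mir126a, 0.41, adjusted p = 0.0372, kept in 17 of 24 fits without 1 array) and stood at -0.12 in KO hearts (adjusted p = 0.511), while Egfl7 itself stood at 0.02 in WT hearts and fell by 0.38 in KO hearts.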
